A study of Mus musculus with 6 samples.

Results

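The 9 genes described here are Desert hedgehog (Dhh), the Hedgehog ligand of Schwann cells, and 8 genes through which neighbouring cells receive and answer it: Ptch1, Smo, Gas1, Boc, Hhip, Gli1, Gli2 and Gli3. They were found by their exact symbols among 24421 gene symbols of a table of RNA sequencing read counts. All 9 were in the table and all 9 passed the filter on low counts. The counts came from 6 mouse neurofibromas, which are benign nerve sheath tumours, on a C57BL/6J background, and no drug was given. The 3 tumours of miR155KO_Nf1KO (MiRNC149, MiRNC640 and MiRNC670) carried a knockout of the microRNA miR-155 in addition to the tissue genotype Nf1fl/fl; DhhCre. The 3 tumours of Nf1KO (Nf803, Nf809 and Nf827) had Nf1fl/fl; DhhCre alone. In both groups floxed Nf1, a negative regulator of Ras, was thus removed by a Cre recombinase under control of Dhh, so that the deletion reaches cells of the Schwann cell lineage and their descendants, while other cells of the tumour keep Nf1. The labels do not limit the loss of miR-155 to a cell type. They give no age: mice were kept to a set time point or tumour size limit. The study asked which transcripts change without miR-155, as possible targets of it.

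In peripheral nerve, Schwann cells secrete Dhh, and cells around them, above all perineurial cells and fibroblasts, respond. Without ligand, the receptor Ptch1 holds back the membrane protein Smo, and Gli3, with part of Gli2, is processed into a repressor. Ligand binding to Ptch1, aided by the co-receptors Gas1 and Boc, frees Smo at the primary cilium, after which Gli2 and Gli3 activate transcription. Gli1, Ptch1 and Hhip are themselves switched on by the pathway, so that their transcripts are commonly read as its output, and Ptch1 and Hhip then bind ligand and damp the signal. Mice without Dhh form a thin, leaky perineurium.

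Library totals ran from 13061129 to 16333181 reads. The targeted transcript was low where the labels place the knockout: Mir155hg, the host transcript of miR-155, had 5, 3 and 1 reads in miR155KO_Nf1KO, against 57, 66 and 71 in Nf1KO. The Nf1 transcript averaged 341 ± 43.3 CPM over the miR155KO_Nf1KO tumours and 324 ± 33.2 CPM over the Nf1KO tumours (SD, n = 3 each), where CPM is counts per 1e6 reads of the scaled library. Schwann cell identity was present in every tumour: the summed level of 12 Schwann cell markers was 6109.6 to 7285 CPM in miR155KO_Nf1KO and 5166 to 5628 CPM in Nf1KO. Of the other lists, 6 general fibroblast markers summed to 4695 to 6043 CPM in miR155KO_Nf1KO and 9831 to 10516 CPM in Nf1KO, and 7 macrophage markers to 286 to 535 CPM in miR155KO_Nf1KO and 1073 to 2450 CPM in Nf1KO. The sum of 6 neuron markers was 3200 to 4761 CPM in miR155KO_Nf1KO and 744 to 1332 CPM in Nf1KO. Skeletal muscle markers were high in 1 tumour of each group, at 2150.1 CPM in MiRNC670 and 2301 CPM in Nf809, against at most 395 CPM in the other tumours, and adipocyte markers reached 1937 CPM in MiRNC640. In bulk tumours, fewer cells of a type and less RNA per cell cannot be told apart.

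The sequence that the knockout removes, and the matches to it in the pathway's transcripts, are shown here because the study looked for miR-155 targets. In the mature microRNA (chromosome 16, 84714143 to 84714165, plus strand, GRCm38.p6, from RefSeq) the capitals mark the seed, bases 2 to 8, which pairs with target transcripts.
mmu-miR-155-5p: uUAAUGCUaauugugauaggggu
For each gene, the longest 3′ UTR that GENCODE M21 annotates on GRCm38 was searched, on the transcribed strand, for the 8-base match AGCATTAA and for AGCATTA or GCATTAA, the 7-base parts it contains. Boc, Dhh and Hhip held 1 site each, and the other 6 of the 9 genes held none. Among the 19529 gene symbols with a 3′ UTR, 13.3% held a site of any kind and 3.17% an 8-base one. Boc had the only 8-base site of the 9, at base 461 of a 3′ UTR of 563 bases. The sites follow with their flanks, 5′ to 3′, with the match in capitals, and that of Shh, a second Hedgehog ligand detected in the tumours, is added.
Boc, chromosome 16: acagcactctaAGCATTAAcagtctcccag
Dhh, chromosome 15: tcaagtagtacAGCATTAgcctagtgtgc
Hhip, chromosome 8: aacaattgcctGCATTAAaaagtgcttgc
Shh, chromosome 5: aggatgtttttGCATTAAtaaactgagaa
A match describes these letters and is not evidence of binding. A consensus of the Gli factors, GACCACCCA, was also sought on both strands from 250 bases before to 50 after the annotated gene starts in RefSeq (GRCm38.p6). Of the 9 genes, 7 had such a window and none of the 7 held it, while 78 of 27025 genes did (0.289%). Boc and Gli1 had no window and were not searched. With a motif this rare, its absence from 7 genes says little. A missing match says only that these letters are not in this window.

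Of the 9 genes, edgeR called Gli3 alone (adjusted p under 0.05): it was lower in miR155KO_Nf1KO, at 22.4 CPM against 40.9 CPM in Nf1KO. None was called higher by edgeR, and 2 of the 9 had an unadjusted p under 0.05, against 26.7% of all tested genes. Of all 15604 tested genes, 9.96% were called at an adjusted p under 0.05 and 4.74% were called lower. The ligand Dhh and the co-receptor Gas1 overlapped widely between groups. The 95% intervals of Ptch1, Gli1, Gli2 and Hhip held both no change and a fall larger than that of Gli3. The calls given here and below rest on all 6 tumours: edgeR called 0 genes of the whole table without MiRNC670, Nf803 or Nf827 (3240, 3335 and 3265 at an unadjusted p under 0.05), and 142 without MiRNC640.

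Dhh (chromosome 15, 98891152 to 98898540, minus strand, GRCm38 as for all genes below) was the most abundant of the 9, and no difference between groups was detected. It was at 659, 550.2 and 626 CPM in MiRNC149, MiRNC640 and MiRNC670 (miR155KO_Nf1KO), against 688, 471 and 723 CPM in Nf803, Nf809 and Nf827 (Nf1KO), the order kept below. All tumours of miR155KO_Nf1KO fell within the range of Nf1KO, whose tumour Nf809 was the lowest of the 6. The mean was 612 ± 55.6 CPM in miR155KO_Nf1KO and 627 ± 137 CPM in Nf1KO (SD, n = 3 each), and the log2 fold change was -0.04 (SE 0.18, adjusted p = 0.925). All adjusted p-values are from edgeR's quasi-likelihood fit over 15604 genes, adjusted by Benjamini-Hochberg, unless another tool is named. The 95% interval of the log2 fold change ran from -0.46 to 0.39. Dhh exons overlap those of Rhebl1 on the same strand, which had 33 to 65 reads against 7613 to 10806 for Dhh. Whether the Cre transgene adds reads to the Dhh row was not tested.

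Per kilobase of exon, the levels fell into a steep order. Averaged over the 6 tumours, Dhh had 141 CPM per kb, which is above 99.4% of tested genes, followed by Ptch1 at 25.1, Smo at 21.5, Gli1 at 10.04, Gas1 at 5.50, Gli2 at 3.81, Gli3 at 3.30, Boc at 2.89 and Hhip at 0.236 CPM per kb, the last above 2.1% of tested genes. The range of Dhh over tumours (107 to 164 CPM per kb) lay clear of Ptch1 (18.1 to 35.7), and that of Boc (1.55 to 4.08) lay clear of Hhip (0.0480 to 0.477). The other neighbours in this order overlapped, and neighbours with overlapping ranges are not ordered beyond their spread. Shh, the ligand better known from limb and neural tube, stood among the receptors at 23.2 CPM per kb (9.01 to 29.3), and within each tumour Dhh exceeded it 4.49- to 11.9-fold. The third ligand gene, Ihh, had 0 reads in every tumour, and a bound of 3 reads sets its level at no more than 0.238 CPM in the library where a read weighs most. Lengths are from GENCODE M21, which may differ from the annotation used for counting.

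**Figure D1:**
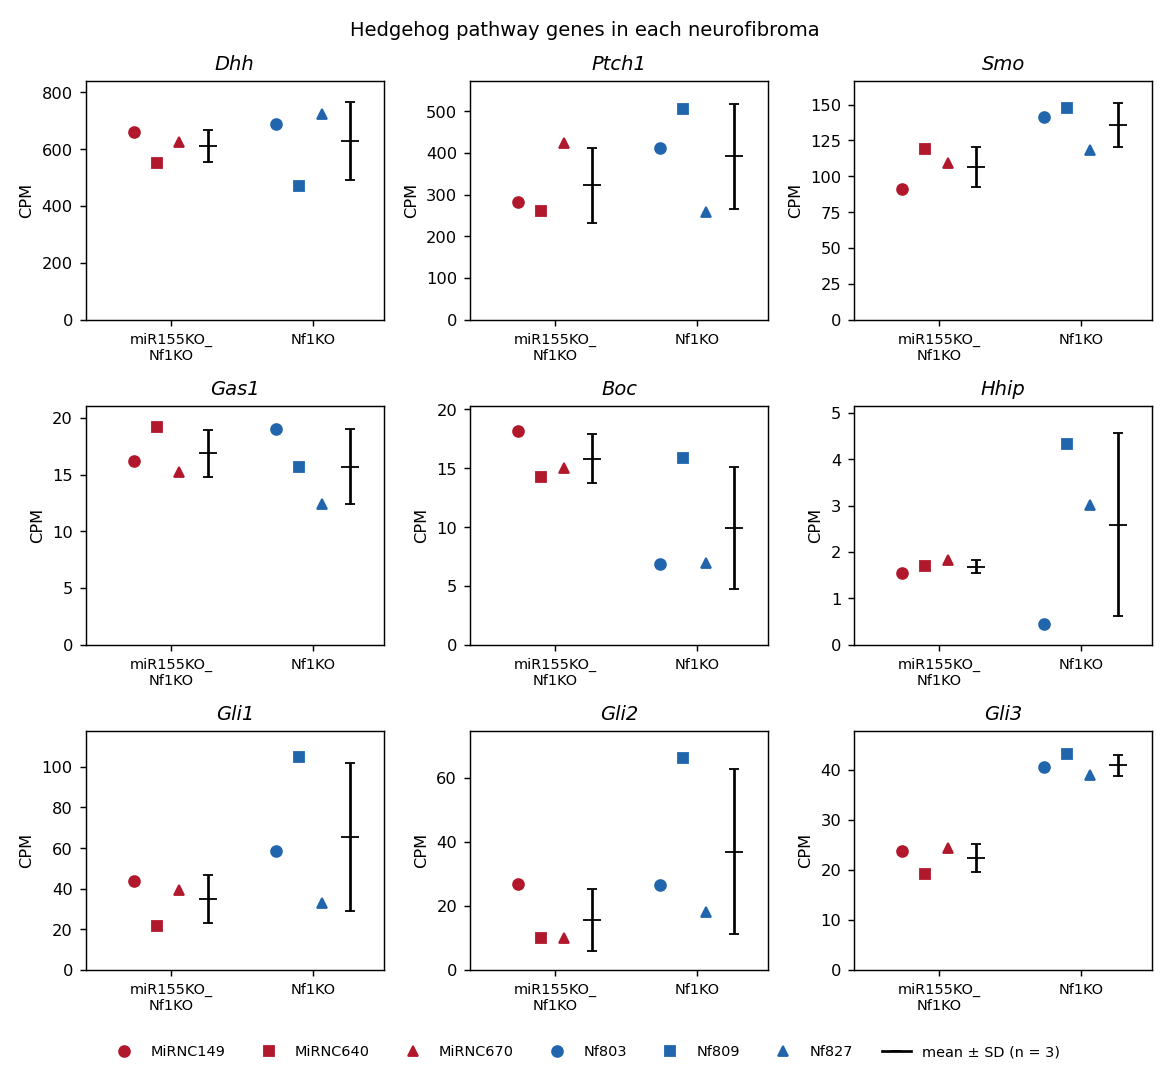
Level of each of the 9 genes in CPM (vertical axes, from 0) in every tumour, with miR155KO_Nf1KO in red on the left and Nf1KO in blue on the right; black bars are the mean ± SD of 3 tumours. Gli3 is the gene whose groups do not overlap (19.2 to 24.2 CPM in miR155KO_Nf1KO against 39.0 to 43.1 CPM in Nf1KO), while Nf809, the blue square, is the highest tumour for Ptch1, Smo, Gli1, Gli2, Gli3 and Hhip and the lowest for Dhh.

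The receptor Ptch1 and the transducer Smo were both abundant and neither passed the test. Ptch1 (chromosome 13, 63508328 to 63573598, minus strand) was at 282, 260.2 and 424 CPM in miR155KO_Nf1KO, against 411, 506 and 257 CPM in Nf1KO. The lowest tumour of the 6 was Nf827 and the ranges overlapped widely (log2 fold change -0.28, SE 0.28, 95% interval -0.94 to 0.38, edgeR adjusted p = 0.585). Smo (chromosome 6, 29735503 to 29761365, plus strand) was at 91.4, 119 and 109 CPM in miR155KO_Nf1KO, against 141, 148 and 118 CPM in Nf1KO. The groups of Smo overlapped only in that MiRNC640 stood just above Nf827, and the log2 fold change was -0.35 (SE 0.15, unadjusted p = 0.0488, adjusted p = 0.185, edgeR quasi-likelihood test). Unadjusted, 26.7% of all tested genes passed that threshold.

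The co-receptors, Gas1, a membrane-anchored protein that helps ligand reach Ptch1, and Boc, of the immunoglobulin superfamily, did not pass the test, and Boc split the Nf1KO tumours. Gas1 (chromosome 13, 60174405 to 60177365, minus strand) was at 16.2, 19.2 and 15.2 CPM in miR155KO_Nf1KO, against 19.0, 15.7 and 12.4 CPM in Nf1KO (log2 fold change 0.10, SE 0.21, edgeR adjusted p = 0.803). Boc was at 18.2, 14.3 and 15.0 CPM in miR155KO_Nf1KO, against 6.90, 15.9 and 6.96 CPM in Nf1KO. The 3 tumours of miR155KO_Nf1KO and tumour Nf809 thus lay together, with Nf803 and Nf827 well below them. The log2 fold change was 0.67 (SE 0.36, 95% interval -0.16 to 1.51) and the edgeR adjusted p was 0.282. Boc passed in edgeR without tumour Nf809 (log2 fold change 1.20, adjusted p = 0.0182) and in limma voom with quality weights (0.99, adjusted p = 0.0481), and in none of the other settings tried. Its adjusted p without each of the other 5 tumours was 0.375 to 0.554.

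Boc is the gene with the 8-base miR-155-5p site. It lies on the same chromosome as Mir155, 40.2 Mb away (chromosome 16, 44485049 to 44558897, minus strand). The skeletal muscle list, high in Nf809, summed to 176 CPM in MiRNC149, the tumour with the highest Boc level, and to 395 and 2150 CPM in MiRNC640 and MiRNC670, against 51.9, 2301 and 4.82 CPM in the Nf1KO tumours Nf803, Nf809 and Nf827. Of the 6 muscle markers, 0 were called by edgeR (0 at an unadjusted p under 0.05), and DESeq2 called 0 of the 4 to which it gave an adjusted p. Acta1 and Myh4 were at 0 in Nf827. The neuron list summed to 3515, 3200 and 4761 CPM in MiRNC149, MiRNC640 and MiRNC670, against 752, 1332 and 744 CPM in Nf803, Nf809 and Nf827. The part of linkage, of muscle tissue and of neuronal RNA in the Boc level was not tested. Among tested genes with an 8-base site, 37 of 492 (7.52%) were called higher and 23 lower, with a median log2 fold change of 0.03. Among those without a site, 608 of 11933 (5.1%) were called higher and 628 lower, with a median of -0.003. The difference was not tested.

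Hhip (chromosome 8, 79965851 to 80058006, minus strand), a decoy receptor that binds Hedgehog ligands at the cell surface, was near the lower limit of what these libraries resolve. It had 24, 25 and 23 reads in miR155KO_Nf1KO, against 6, 70 and 45 reads in Nf1KO. The 3 tumours of miR155KO_Nf1KO were close together and lay inside the range of Nf1KO, whose highest tumour was 9.94 times its lowest in CPM. The log2 fold change was -0.63 (SE 0.73, edgeR adjusted p = 0.641).

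Gli3 (chromosome 13, 15463235 to 15730026, plus strand), the 1 gene called, encodes the factor that carries most of the pathway's repressor activity when ligand is absent. Its level was 23.7, 19.2 and 24.2 CPM in miR155KO_Nf1KO, against 40.5, 43.1 and 39.0 CPM in Nf1KO. Every tumour of miR155KO_Nf1KO was below every tumour of Nf1KO, as was the case in one direction or the other for 32.6% of tested genes. The mean was 22.4 ± 2.77 CPM in miR155KO_Nf1KO and 40.9 ± 2.08 CPM in Nf1KO (SD, n = 3 each), a log2 fold change of -0.87 (SE 0.16, 95% interval -1.24 to -0.50) with an edgeR adjusted p of 0.0255. The Gli3 3′ UTR of 3245 bases held no miR-155-5p site. The adjusted p was 3.26e-05 by DESeq2, which called 19.0% of genes and, of the 9, Gli3 alone. In edgeR the call was lost without tumour MiRNC640 (adjusted p = 0.0694), MiRNC670 (0.0885), Nf803 (0.0846) or Nf827 (0.0765), and the log2 fold change ran from -0.96 to -0.77 over the 6 fits without 1 tumour each.

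Gli3 and general fibroblast transcripts were both lower in miR155KO_Nf1KO, and this was not particular to them. Of all tested genes, 16.3% were lower there without overlap of the groups. The macrophage sum (286 to 535 against 1073 to 2450 CPM in Nf1KO) also separated the groups. So did the endoneurial fibroblast sum (3675 to 9214 against 12828 to 16385 CPM) and the perineurial sum (948 to 1218 against 1281 to 2155 CPM). Of the 6 general fibroblast markers (Pdgfra, Dcn, Lum, Col1a1, Col1a2 and Col3a1), Lum, Col1a2 and Col3a1 were called lower and none higher. Of all tested genes, 4.74% were called lower. The median log2 fold change of the 6 was -0.80, against 0.01 over all tested genes, and no marker was at 0 in any tumour. As a percentage of their summed level, Gli3 was at 0.394, 0.409 and 0.401% in miR155KO_Nf1KO and at 0.412, 0.410 and 0.381% in Nf1KO. The groups overlapped, and the log2 ratio differed by 0.002 between them. This ratio was chosen after both falls had been seen and restates them side by side, so no test result is given. It was counted when the p-values of the ratios below were adjusted. The part of fibroblast content in the fall of Gli3 was not tested.

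**Figure D2:**
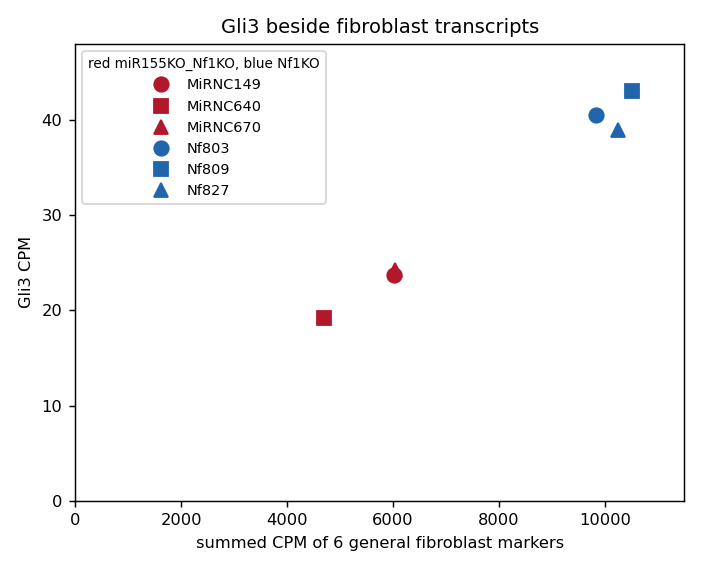
Gli3 level in CPM (vertical axis) against the summed CPM of 6 general fibroblast markers (horizontal axis) in each tumour, both from 0. The 3 red tumours of miR155KO_Nf1KO sit at 4695 to 6043 on the horizontal axis with Gli3 at 19.2 to 24.2 CPM, and the 3 blue tumours of Nf1KO at 9831 to 10516 with Gli3 at 39.0 to 43.1 CPM.

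The 2 other Gli genes had lower means in miR155KO_Nf1KO but did not pass the test. Gli1 (chromosome 10, 127329882 to 127341974, minus strand), the amplifying activator that the pathway induces, was at 43.8, 21.3 and 39.5 CPM in miR155KO_Nf1KO, against 58.4, 105 and 32.9 CPM in Nf1KO. Tumour Nf827 lay below 2 tumours of miR155KO_Nf1KO, and the log2 fold change was -0.91 (SE 0.44, edgeR adjusted p = 0.242). Gli2 (chromosome 1, 118834132 to 119053619, minus strand), the main activator at the onset of signalling, was at 26.8, 9.79 and 9.98 CPM in miR155KO_Nf1KO, against 26.3, 66.1 and 17.9 CPM in Nf1KO. Here tumour MiRNC149 stood at the level of Nf803, and the log2 fold change was -1.24 (SE 0.58, edgeR adjusted p = 0.227). The 95% intervals were -1.94 to 0.13 for Gli1 and -2.61 to 0.13 for Gli2, so that a fall larger than that of Gli3 lies within both. Gli1 exons overlap those of Arhgap9, a gene of blood cells, on the opposite strand, and the strand setting of the counting is not given. Arhgap9 fell (log2 fold change -2.16, edgeR adjusted p = 0.0327) with 31 to 301 reads, against 316 to 1699 reads for Gli1.

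Gli1, Gli2 and Hhip had a wider spread between tumours of 1 group than Dhh when both groups were pooled. Within miR155KO_Nf1KO alone, the highest tumour was 1.18 times the lowest for Hhip, against 1.20 times for Dhh. The pooled within-group SD of log2 CPM was 0.26 for Dhh, above that of 40.0% of tested genes. It was 0.44 for Ptch1, 0.71 for Gli1, 0.90 for Gli2 and 1.12 for Hhip, above 66.4, 85.0, 91.1 and 95.2% of tested genes, whereas Gli3 had 0.14, above 14.1%. Within Nf1KO the order of tumours was the same for Gli1, Gli2 and Ptch1, with Nf809 highest, Nf803 next and Nf827 lowest. Gli1 in Nf809 was 3.19 times its level in Nf827, and Gli2 was 3.69 times. Tumour Nf809 had the lowest level of both detected ligands among the 6 tumours, with Dhh 0.39 and Shh 0.98 log2 units below the Nf1KO mean, while Gli1 and Gli2 were 0.84 and 1.07 units above it. The perineurial tight junction gene Cldn1 was also highest in Nf809, at 1091 CPM, with 728 and 497 CPM in Nf803 and Nf827. Cldn1 is 1 of 10 perineurial markers, which did not share 1 order of tumours. Within Nf1KO, Itgb4, Perp, Tjp1 and Lypd2 had the order of Cldn1, Lypd2 at only 5 to 29 reads. Slc2a1, Ntng1, Ocln, Msln and Krt19 had other orders. The perineurial glucose transporter gene Slc2a1 was at 157, 134 and 113 CPM in Nf803, Nf809 and Nf827. The sum of the 10 markers was 1675, 2155 and 1281 CPM in these tumours. Without Nf809 the log2 fold changes between groups were -0.05 for Ptch1, -0.39 for Gli1, -0.50 for Gli2 and -0.04 for Hhip, all with an edgeR adjusted p of at least 0.533, whereas Gli3 was still called (-0.82, edgeR adjusted p = 0.0254). Nf809 was the tumour with the most muscle transcript, and the part of muscle in these values was not tested. In MiRNC670, with a muscle sum near that of Nf809, Ptch1 was 0.17 units above the Nf1KO mean, and Gli1 and Gli2 were 0.57 and 1.65 units below it.

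**Figure D3:**
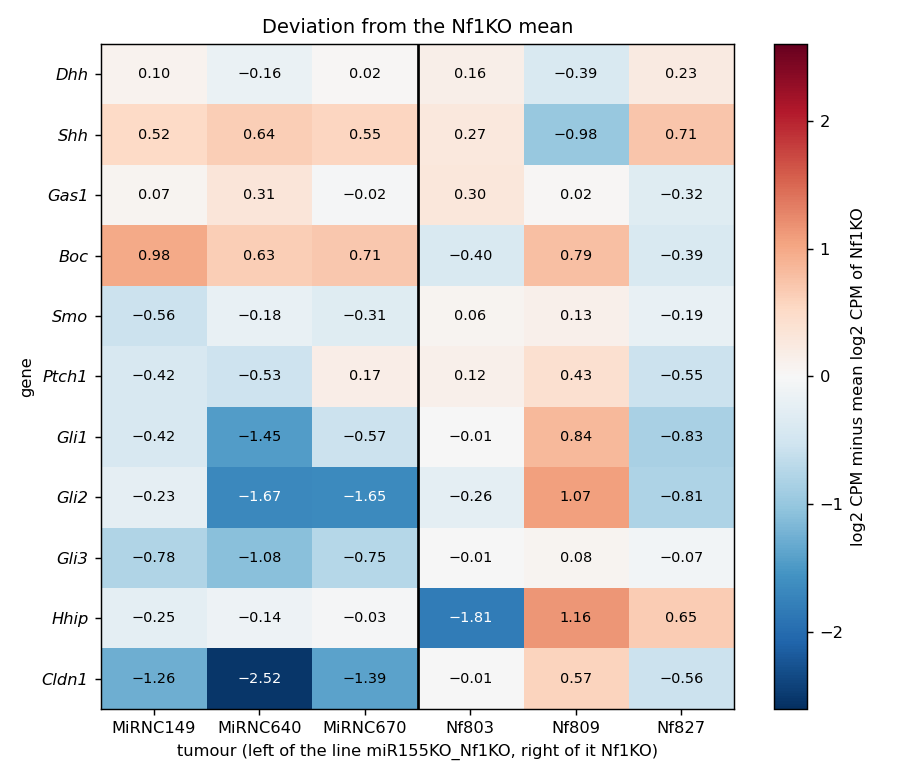
Deviation of each tumour from the mean of the Nf1KO tumours, in log2 CPM, for the 9 genes, the ligand Shh and the perineurial gene Cldn1 (rows); tumours of miR155KO_Nf1KO are left of the line and those of Nf1KO right of it. In the Nf809 column Ptch1, Gli1, Gli2, Hhip and Cldn1 are positive (0.43 to 1.16) and Dhh and Shh negative (-0.39 and -0.98). The Gli3 row separates the groups. Cldn1 is 1 of 10 perineurial markers, of which some shared its order of Nf1KO tumours and others did not.

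Set against the cells that make the ligand, Dhh was 9.04, 8.20 and 10.2% of the summed Schwann cell markers in miR155KO_Nf1KO, and 12.2, 8.51 and 14.0% in Nf1KO. The groups overlapped through Nf809, and the log2 ratio differed by -0.31 (exact permutation test over 20 splits of the tumours, two-sided, p = 0.3, adjusted p = 0.45 over 3 ratios). The 3 ratios of this adjustment include that of Gli3 to fibroblast markers, which was chosen after its values were seen. Of the 12 Schwann cell markers, 2 were called higher and none lower, against 5.22% and 4.74% of all tested genes, and the median was 0.29. The calcium-binding protein gene S100b rose by 1.43 on the log2 scale (SE 0.15, edgeR adjusted p = 0.0186). The sum of Gli1, Ptch1 and Hhip was 5.44, 6.03 and 7.71% of the general fibroblast sum in miR155KO_Nf1KO, and 4.78, 5.85 and 2.86% in Nf1KO. Most of that sum was Ptch1: in MiRNC149 it held 282 CPM of Ptch1, 43.8 CPM of Gli1 and 1.55 CPM of Hhip. The ratio thus mainly describes Ptch1. Gli1 itself had a log2 fold change of -0.91, beside -0.87 for the fibroblast sum. The ratio leaned the other way from the induced genes themselves, by 0.55 on the log2 scale, and did not pass either (exact permutation test, two-sided, p = 0.2, adjusted p = 0.45). Neither test can give a p below 0.10.

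Among 34 further genes of the pathway, 32 passed the filter on low counts, 2 were called higher and none lower, against 5.22% and 4.74% of all tested genes. Their median log2 fold change was -0.01. With edgeR, 8 of the 32 had an unadjusted p under 0.05, against 26.7% of all tested genes. DESeq2 called 5 of the 32, against 19.0% of all genes to which it gave an adjusted p. Disp1, the membrane protein that releases lipid-modified Hedgehog ligands from the cells that make them, was at 48.7, 70.2 and 64.6 CPM in miR155KO_Nf1KO, against 40.8, 32.1 and 35.4 CPM in Nf1KO. It rose by 0.76 on the log2 scale (SE 0.18, edgeR adjusted p = 0.0445), with every tumour of miR155KO_Nf1KO above every tumour of Nf1KO. Kif3a, a motor subunit that builds primary cilia and also carries cargo along axons, was at 242, 264 and 284 CPM in miR155KO_Nf1KO, against 116, 119.8 and 114 CPM in Nf1KO. It rose by 1.18 (SE 0.11, edgeR adjusted p = 0.0186). Both calls were lost in edgeR without MiRNC670, Nf803 or Nf827, and that of Disp1 also without MiRNC640 or Nf809 (adjusted p over these fits 0.0668 to 0.168).

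The neuron list moved with Kif3a and Disp1: 5 of its 6 markers were called higher and none lower, against 5.22% and 4.74% of all tested genes. The median of the 6 was 1.91, and no marker was at 0 in any tumour. The part of neuronal RNA in those changes was not tested. Disp2, a relative of Disp1 found in neurons, was at 79.8, 54.4 and 101 CPM in miR155KO_Nf1KO, against 13.1, 43.2 and 20.2 CPM in Nf1KO. The groups did not overlap, but the log2 fold change of 1.61 (SE 0.44) did not pass in edgeR (adjusted p = 0.0628), as it did in DESeq2 (0.00189). Hhat, the enzyme that attaches palmitate to the ligand, had a log2 fold change of -0.91 (SE 0.33, edgeR adjusted p = 0.126). For the ligand Shh it was 0.41 (SE 0.37, edgeR adjusted p = 0.535).

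At the receptor level, Gpc3, a glypican that competes with Ptch1 for ligand, had a log2 fold change of -0.55 (SE 0.15), with an adjusted p of 0.0567 in edgeR and 0.0119 in DESeq2. The co-receptor Cdon, a relative of Boc, had a log2 fold change of 0.38 (SE 0.45, edgeR adjusted p = 0.654). Of the 20 relay and cilium genes, all tested, Kif3a was the only one called. The genes next in rank had log2 fold changes of 0.70 for Prkaca and 0.41 for Gsk3b, kinases that prepare Gli proteins for processing, and -0.45 for Grk2, a kinase that acts on Smo and is listed under its older symbol Adrbk1 (edgeR adjusted p = 0.130, 0.136 and 0.187). Sufu, which holds Gli proteins in the cytoplasm, had a log2 fold change of -0.24 (edgeR adjusted p = 0.461).

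**Figure D4:**
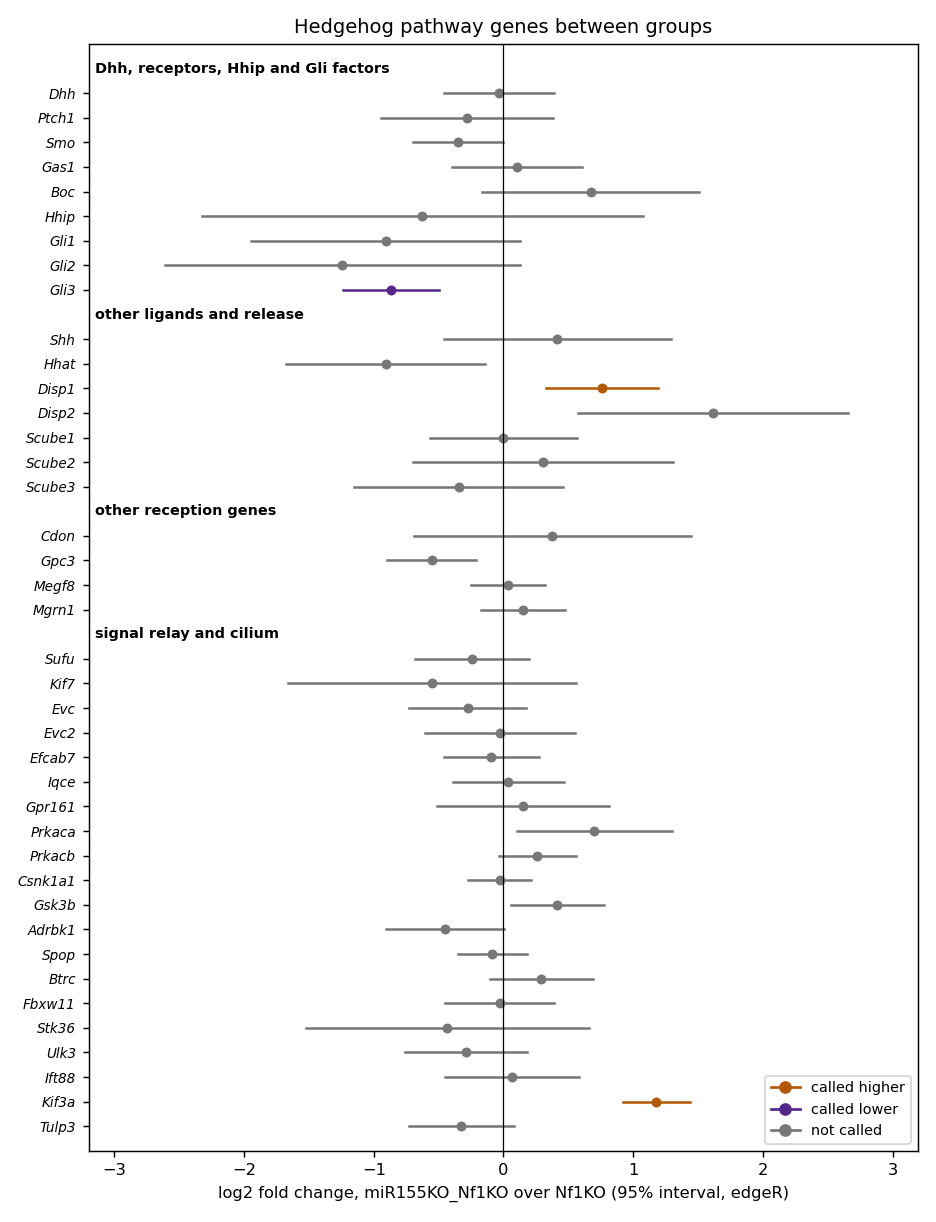
Log2 fold change of miR155KO_Nf1KO over Nf1KO (horizontal axis) with its 95% interval for the 9 genes and other tested genes of the pathway lists, by role; colours mark edgeR calls at an adjusted p under 0.05. Gli3 (-0.87) is called lower, Disp1 (0.76) and Kif3a (1.18) are called higher, and the intervals of Hhip and Gli2 are wide.

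Of 12 genes described as Hedgehog-responsive in other tissues, 11 were tested. Ccnd1, which encodes cyclin D1 and answers to many growth signals, was the 1 called gene. It was at 473, 479.6 and 462 CPM in miR155KO_Nf1KO, against 1196, 884 and 1561 CPM in Nf1KO, and fell by 1.36 on the log2 scale (SE 0.20, edgeR adjusted p = 0.0211). The median of the 11 was -0.64, and 10 had a negative log2 fold change. Of all 15604 tested genes, 4.74% were called lower and 7719 had a negative log2 fold change. Among them, Ccnd2, the related cyclin D2, had a log2 fold change of -1.25 (SE 0.33, edgeR adjusted p = 0.0585), and the forkhead gene Foxd1 one of -1.35 (SE 0.53, edgeR adjusted p = 0.158). Macrophage markers fell in the same tumours (5 of 7 called lower, none higher, median -2.01, none at 0), and their part in the Ccnd1 level was not tested.

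Each of the perineurial, endoneurial and epineurial lists had 1 gene called lower and none higher, against 4.74% and 5.22% of all tested genes. Of 10 perineurial markers, Cldn1 fell (log2 fold change -1.70, SE 0.39, edgeR adjusted p = 0.0398) and the other 9 were not called, with a median of -0.02. Slc2a1, the glucose transporter of the perineurium, averaged 134 ± 32.0 CPM over miR155KO_Nf1KO tumours and 135 ± 22.4 CPM over Nf1KO tumours (SD, n = 3 each). The summed level of the 10 was 948 to 1218 CPM in miR155KO_Nf1KO and 1281 to 2155 CPM in Nf1KO, with Cldn1 at 305, 128 and 279 CPM in miR155KO_Nf1KO, against 728, 1091 and 497 CPM in Nf1KO. Of 6 endoneurial fibroblast markers the chemokine Cxcl14 fell (-1.69, SE 0.40, edgeR adjusted p = 0.0436), with a list median of -0.70. Of 6 epineurial markers the peptidase Dpp4 fell (-1.83, SE 0.43, edgeR adjusted p = 0.0417), with a list median of 0.40. DESeq2 called 4 of the 6 endoneurial and 1 of the 6 epineurial markers, against 19.0% of all genes. The endoneurial sum, most of it Apod, was 3675 to 9214 CPM in miR155KO_Nf1KO and 12828 to 16385 CPM in Nf1KO. The epineurial sums overlapped, at 125 to 230 CPM in miR155KO_Nf1KO and 197 to 233 CPM in Nf1KO. Endothelial and mural markers, 5 each, had no called gene by edgeR (1 and 0 at an unadjusted p under 0.05, and 1 and 0 by DESeq2). In the epithelial list, of which 2 of 5 genes were tested, Krt5 was at 0 in all tumours, and Cdh1, which myelinating Schwann cells also express, rose by 1.45 (SE 0.17, edgeR adjusted p = 0.0186).

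Genes were ranked by how closely their log2 CPM over the 6 tumours followed Dhh, among the 10225 with a mean log2 CPM of at least 3. The closest were Dnajc14, Lysmd3, Cyp20a1, Nol10 and Usp27x, with Pearson's r of 0.986 to 0.970. For Gli1 they were Mkl2, Ddx26b, Ecm2, Mia3 and Ptpn13, with r of 0.993 to 0.982. None of these 10 genes was called between groups. The ranking rests on 6 tumours of 2 groups, takes the highest r of 10225 genes and is a description only.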

How the data were processed

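Per the labels' protocols, tumour RNA came from the RNeasy Plus Micro kit (Qiagen) and libraries from the Nextera XT kit (Illumina). The authors deposited 1 table of unscaled read counts, whole numbers by gene symbol, in 6 columns, 1 a tumour. HISAT2 2.0.5, featureCounts 1.5.2 and mm10 are named in the submitters' processing notes. Which annotation, strand setting and rule for multiply matching reads were used is not given in the sources used here, so overlapping genes may share or lose reads. Totals of 13061129 to 16333181 reads make counting error small except for genes with few reads, such as Hhip and Mir155hg, and counting intervals would cover counting error only.

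Groups were read from the titles. Nothing in the labels says that each tumour came from its own mouse, so the p-values reflect only the spread of these samples, which may be technical. Replicate libraries differed by at least 23.2 times Poisson variance, so no pair was merged as 1 library deposited more than once. Repeat preparations of 1 sample could also differ by this much.

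The groups' counts were tested in edgeR 4.0.16 under R 4.3.3 (quasi-likelihood test, two-sided, filterByExpr with a minimum count of 10 and a total of 15, TMM scaling, group as the only term, Benjamini-Hochberg adjustment over 15604 genes). CPM uses TMM-scaled library sizes, and log2 CPM a prior count of 2. Standard errors come from the F statistic. Ratios to summed marker lists do not depend on scaling.

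The alternatives were DESeq2 1.42.0, limma 3.58.1 voom with and without quality weights, robust edgeR, other scalings and filters, and leaving out tumours. The 9 genes and all lists were chosen with earlier results of these data known. Named genes are the 9, Mir155hg, Nf1, the called and up to 4 lowest-p genes of the lists, and the 5 genes closest in pattern to Dhh and to Gli1. Ihh, Sufu, Slc2a1, Krt5, Acta1, Myh4, Arhgap9 and Rhebl1 were added after their values were seen. So were Itgb4, Perp, Tjp1, Lypd2, Ntng1, Ocln, Msln, Krt19 and Apod. Some genes of the lists enter counts and sums but are not reported here by name. All coordinates are 1-based on GRCm38, the assembly that mm10 names.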

Additional observations from a re-analysis of the deposited data

How the results depend on the processing

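No paired analysis was possible because the tumour numbers of the groups are all different. The 1554 genes called by edgeR became 2962 in DESeq2 and 2675 in limma voom with quality weights, and 0 to 2242 when each tumour was left out in turn (0 without MiRNC670, Nf803 or Nf827, where 3240 to 3335 had an unadjusted p under 0.05, and 142 without MiRNC640). The 2 called genes of the other pathway lists became 5 in DESeq2, 4 with quality weights and 0 to 4 when a tumour was left out. The 1 responsive gene became 3 in DESeq2, 2 with quality weights, 2 with no filter and 0 to 2 when a tumour was left out. The 19 called cell type markers became 30 in DESeq2 and 0 to 25 when a tumour was left out. Gli3 kept its direction in every setting run, with log2 fold changes of -0.96 to -0.77 when a tumour was left out, and missed the threshold at -0.92 without MiRNC670 and Nf809 together (edgeR adjusted p = 0.0555). Boc ranged from 0.44 to 1.20 when a tumour was left out and passed at 0.99 with quality weights. Signs turned for Dhh (-0.2009 to 0.0751) and Gas1 (-0.0439 to 0.2406) when a tumour was left out, for Gas1 (-0.0096) and Hhip (0.77) with quality weights, for the ratio of Gli3 to fibroblast markers (-0.0349 to 0.0224), for Nf1 (-0.0567 to 0.14, and -0.13 without MiRNC670 and Nf809) and for Cdon (-0.10 to 0.75). The cause was not tested. Scaling moved the median of all genes by under 0.04 log2 units. Hhip, at 6 to 70 reads, is limited by depth.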
